A study of Homo sapiens with 4 samples.

Results

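The circadian clock genes described here are PER1, PER2, PER3, CRY1, CRY2, NR1D1, NR1D2, BHLHE40, BHLHE41 and DBP. They were found in the gene table by their Ensembl identifiers, and they are 10 of the 19901 protein-coding genes counted. Nascent RNA was measured by TT-Seq, in which 4-thiouridine (4sU) is built into RNA made during a short pulse and the labeled RNA is purified and sequenced, so that values reflect transcription rather than the RNA that has accumulated. The cells were HCT116, an epithelial colon carcinoma line, in which both alleles of KAP1 (gene symbol TRIM28), a transcriptional regulator, carry a degron tag. The DMSO group received the vehicle and the dTAG group received the degrader dTAG for 8 h. Both groups were labeled with 500 µM 4sU for 10 min in homeostatic culture, with 2 biological replicates each. The degron is carried by the control cells too. All libraries come from the single clone D5, several dishes were pooled for each replicate, and the protocols describe no synchronization of the clock and a single time of harvest.

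In the molecular clock, the activators CLOCK and BMAL1 bind as a pair to E-boxes and drive transcription of the PER and CRY genes, whose proteins return to the nucleus and inhibit that pair. NR1D1 and NR1D2 (REV-ERB alpha and beta) are heme-binding nuclear receptors that repress BMAL1 transcription, against the activating ROR receptors. BHLHE40 and BHLHE41 (DEC1 and DEC2) are repressors that bind E-boxes themselves, and DBP is an activator that carries the rhythm to genes with D-boxes, together with TEF and HLF and against the repressor NFIL3. DBP and NR1D1 are, like the PER genes, textbook examples of direct E-box targets, and peripheral cells, gut epithelium included, run this loop on their own.

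The canonical E-box letters, CACGTG, are shown here because the loop acts through them. The letters read the same on both strands. They were searched in the counted interval of each gene in hg38, and the windows are printed on the strand of the gene, with the E-box in capitals and 10 bases on each side. The 3 sites of DBP, which all lie in introns of the canonical transcript on the minus strand, were the following.
DBP, chr19:48633659-48633684: actcagctgaCACGTGctgtttcccc
DBP, chr19:48634551-48634576: caggcgtcagCACGTGactcggccct
DBP, chr19:48634686-48634711: attcctgcgcCACGTGagtcctccca

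NR1D1, also on the minus strand, held 5 sites, of which the first printed is in a coding exon and the others are in introns. The windows of the third and the fourth overlap, since their E-boxes start 1577 and 1562 bases from the gene start.
NR1D1, chr17:40095503-40095528: atgccccaccCACGTGtatgcagccc
NR1D1, chr17:40096122-40096147: ggaagagaagCACGTGagcatggttg
NR1D1, chr17:40099133-40099158: gcgagaggcaCACGTGgagcagggac
NR1D1, chr17:40099148-40099173: gttggggagcCACGTGcgagaggcac
NR1D1, chr17:40099429-40099454: gagccgggccCACGTGctgcgtttgt

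For 4 members the letters also stood within the 250 bases upstream of a transcription start in the RefSeq promoter table (GRCh38.p14). These are printed for comparison with DBP and NR1D1, in whose upstream 250 bases the letters were not found. PER1 and BHLHE41 are on the minus strand, and NR1D2 and BHLHE40 are on the plus strand.
PER1, chr17:8152562-8152587: cacccaggtcCACGTGcgcccgtgtg
NR1D2, chr3:23945956-23945981: cgggcggggaCACGTGaggccgctcg
NR1D2, chr3:23946006-23946031: gccgcagggaCACGTGggggcggggg
BHLHE40, chr3:4979182-4979207: cgttgtccaaCACGTGagactcatgt
BHLHE41, chr12:26125070-26125095: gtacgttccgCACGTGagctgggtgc

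Counted from the start site, with the base before it as -1, the motif began at -173 in PER1, at -155 and -105 in NR1D2, at -245 in BHLHE40 and at -48 in BHLHE41. The NR1D2 positions refer to its downstream start, and both sites are intronic in the canonical transcript. The window at the upstream start of NR1D2 held no E-box letters. The RefSeq table gave 13 windows for the 10 members, and the letters are found in 6.34% of its 35116 windows. D-box letters (TTANGTAA, both strands), the motif of DBP and its relatives, were found at -177 in PER3 and at -194 of the downstream start of NR1D2, against 1.98% of all windows. The core of the ROR and NR1D element (TAGGTCA, both strands) was found at -65 in CRY2, against 1.61% of all windows. The letters of the cAMP response element (TGACGTCA), which reads the same on both strands, were found in no member and in 1.65% of all windows. None of these matches overlapped another. A match describes the letters only.

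Over the counted intervals, 46 E-boxes were found, and all 10 members held at least 1. That is also true of 88.0% of the tested genes, so that presence alone sets no member apart. The median density was 0.168 sites per kilobase in the members and 0.0980 in the tested genes. NR1D1 had the highest density among the members, at 0.630 per kilobase (99.0th percentile of tested genes), and 97.3% of the 662 tested genes of like length held fewer sites. DBP had 0.405 per kilobase (95.9th percentile), where 85.5% of 594 genes of like length held fewer. BHLHE41 was close to it, with 0.392 from 2 sites (95.5th percentile), where 79.8% of 455 genes of like length held fewer. Genes were matched on length and not on GC content, which was 56.8% in NR1D1 and 58.5% in DBP against a median of 44.9% over the tested genes. CRY1, the longest member, was the sparsest, with 4 sites and 0.0390 per kilobase (17.6th percentile). Of the 46 sites, 35 were intronic, 4 were in coding exons, 6 lay upstream of the canonical start and 1 was in the 3' UTR of CRY2.

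**Figure D1:**
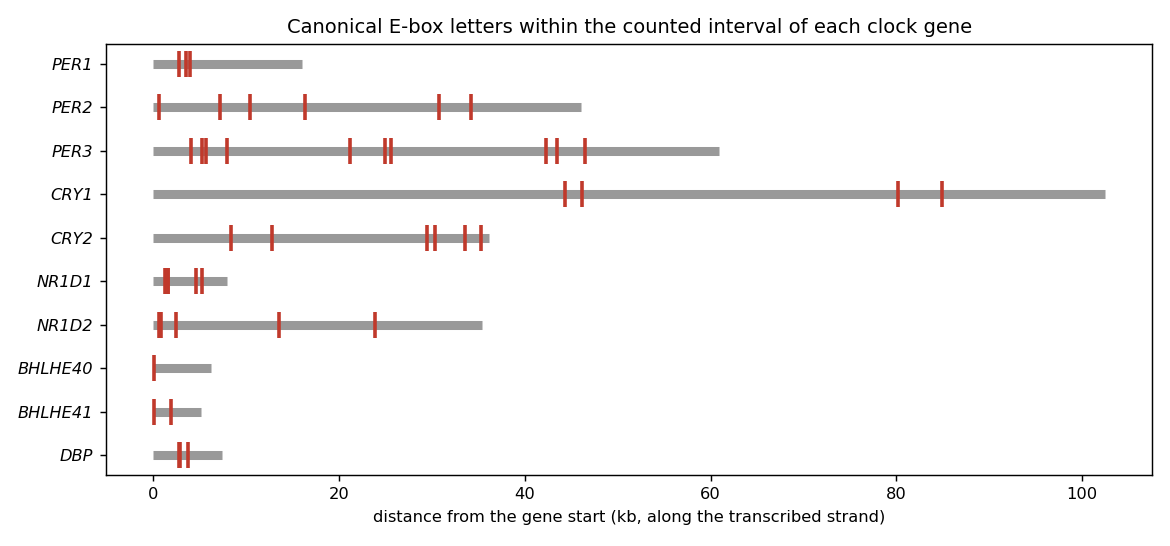
Position of the canonical E-box letters (red ticks) in each clock gene, as the distance from the gene start in kilobases along the transcribed strand; grey bars are the counted intervals. The 5 sites of NR1D1 and the 3 of DBP fall within short genes, whereas the 4 of CRY1 are spread over the longest one.

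The libraries held 93105627 to 102314741 gene counts, and 12612 genes, all 10 members among them, had at least 50 counts in all 4 libraries and were tested. Levels are given as CPM, a gene's count relative to the library total, scaled by TMM factors, which set the bulk of genes equal between libraries. Unless it belongs to a range over alternatives, each adjusted p for a gene comes from a quasi-likelihood F test in edgeR, adjusted after Benjamini and Hochberg for the 12612 genes. A gene was called at 0.05. The ranges also hold a DESeq2 Wald test, an edgeR likelihood ratio test, and fits with other count minimums that adjust over 17450 or 13865 genes. The 6 epithelial markers EPCAM, CDH1, KRT8, KRT18, KRT19 and CLDN7 were all detected, between 5.13 and 437.7 CPM, and the leukocyte markers PTPRC and CD3E had 0 to 3 counts. Of the markers of other cell types, only COL1A1 passed the count minimum, at 4.65 to 5.43 CPM. TRIM28 itself gave 61.7 and 69.8 CPM with DMSO and 53.5 and 47.9 CPM with dTAG, but the degrader acts on the protein, so its RNA does not check the depletion. The libraries also differed in base composition: log2 fold change ran against gene GC content (Spearman's rho = -0.56 across the 12612 genes), and the log2 ratio of DMSO replicate 2 over DMSO replicate 1 ran with it (rho = 0.75). Both are correlations across genes, and genes are no replicates of a condition. The members are therefore also described with offsets for GC and length within each library. Afterwards the rho of log2 fold change with GC content was 0.085. Its rho with gene length was 0.42 before the offsets and was not computed after them. TRIM28, at 59.3% GC, was called lower with TMM factors (log2 fold change -0.37, adjusted p = 0.0189) but not with the offsets (-0.10, adjusted p = 0.171).

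With dTAG, 2 of the 10 clock genes fell, DBP and NR1D1. With TMM factors in edgeR, 0 members were called higher, none of them had a higher value at an unadjusted p under 0.05, and DESeq2 also called 2 lower and 0 higher. Over all tested genes, 7.10% were called, 3.66% lower and 3.44% higher. That split depended on the scaling, from 461 lower and 434 higher with TMM to 869 lower and 255 higher with upper-quartile factors and 525 lower and 797 higher with a factor estimated from the ERCC spike-in RNAs as a covariate (the ERCC factor). The median log2 fold change of the 10 genes was 0.014, beside -0.015 over all tested genes. With the GC and length offsets, 4 members were called, DBP and NR1D1 lower and PER2 and BHLHE40 higher, where 18.1% of all genes were called, 7.45% lower and 10.6% higher. In 7 members both dTAG libraries lay on one side of both DMSO libraries, above in PER3, CRY1 and NR1D2 and below in PER1, NR1D1, BHLHE41 and DBP. That separation was found for 58.8% of tested genes.

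**Figure D2:**
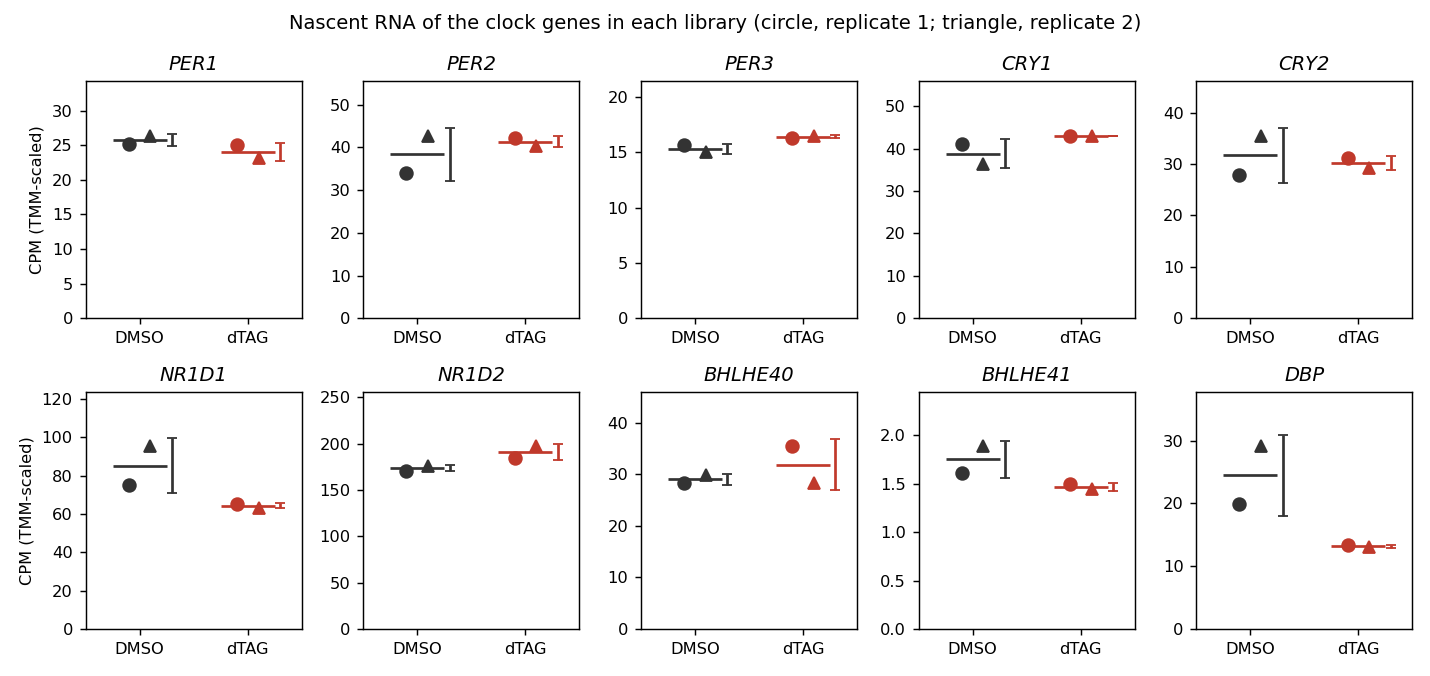
TMM-scaled CPM of each clock gene in the 2 DMSO and 2 dTAG libraries (circle, replicate 1; triangle, replicate 2), with the mean as a line and the SD as a bar. DBP fell from 19.9 and 29.1 CPM to 13.3 and 13.0 CPM and NR1D1 from 75.1 and 95.2 CPM to 65.3 and 63.3 CPM, and in PER2, CRY2 and BHLHE40 the 2 groups overlap.

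DBP (ENSG00000105516.10, chr19:48630029-48637438, minus strand), the D-box activator and clock output, showed the largest change of the 10. It gave 19.9 and 29.1 CPM with DMSO and 13.3 and 13.0 CPM with dTAG, from 1974, 2902, 1333 and 1176 raw counts. The dTAG libraries nearly coincided and were both under the lower DMSO library, while the 2 controls stood well apart. The mean fell from 24.5 ± 6.48 CPM to 13.2 ± 0.196 CPM (SD, n = 2 each). The log2 fold change was -0.90 (SE 0.141, edgeR adjusted p = 5.85e-04), which is 46.3% lower and the 62nd smallest p of all tested genes. Its GC content was 58.5%, against a median of 44.9% over the tested genes, and with the offsets the log2 fold change was -0.62 (adjusted p = 0.00105). Its size varied with the setting, being -0.60 without DMSO replicate 2, -1.14 without DMSO replicate 1, -0.44 with the ERCC factor as a covariate and -0.45 with the offsets without DMSO replicate 2. DBP was called under 19 of 20 alternatives, with adjusted p between 2.04e-23 and 0.74, the exception being scaling by the total of the ERCC spike-in RNAs (-0.18).

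The related D-box factors TEF and HLF were each lower in both dTAG libraries but did not pass the test. TEF gave 22.6 and 28.0 CPM with DMSO and 21.6 and 21.1 CPM with dTAG (log2 fold change -0.25, SE 0.115, adjusted p = 0.173), and its value with the offsets was -0.13. HLF gave 11.7 and 13.1 CPM with DMSO and 9.93 and 10.0 CPM with dTAG (-0.31, SE 0.133, adjusted p = 0.139), and it was called with the offsets (-0.38, adjusted p = 0.0192). The HLF call was lost without DMSO replicate 2 (-0.28, adjusted p = 0.091), without dTAG replicate 1 (-0.37, adjusted p = 0.062) and without dTAG replicate 2 (-0.38, adjusted p = 0.088). Within a library, the per-kilobase level of DBP over that of TEF was 3.80 and 4.48 with DMSO and 2.66 and 2.67 with dTAG. The exact permutation p of this ratio was 0.333, the smallest that 2 against 2 libraries allow. NFIL3, the repressor that competes for the same D-boxes, rose from 64.3 and 61.8 CPM to 82.3 and 89.6 CPM (log2 fold change 0.45, SE 0.0849, adjusted p = 0.00306). It was not called without dTAG replicate 1 (0.51, adjusted p = 0.075) or without dTAG replicate 2 (0.38, adjusted p = 0.54), within a range of 3.40e-09 to 0.54 over its alternatives.

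NR1D1 (ENSG00000126368.5, chr17:40092786-40100725, minus strand), the REV-ERB alpha receptor, was the other member that fell. It gave 75.1 and 95.2 CPM with DMSO and 65.3 and 63.3 CPM with dTAG. Again the dTAG libraries lay close together and under both controls, of which replicate 2 was the higher. The mean changed from 85.1 ± 14.3 CPM to 64.3 ± 1.41 CPM (SD, n = 2 each), with a log2 fold change of -0.41 (SE 0.0982, edgeR adjusted p = 0.0169), or 24.5% lower. Its call was less stable than that of DBP. It was lost without dTAG replicate 1 (-0.42, adjusted p = 0.23), without dTAG replicate 2 (-0.38, adjusted p = 0.58) and with an ERCC factor as a covariate (-0.12, adjusted p = 0.35). Leaving out a control kept the call but moved the value to -0.57 without DMSO replicate 1 and to -0.22 without DMSO replicate 2. With the offsets the log2 fold change was -0.16 (adjusted p = 0.0461, GC content 56.8%). That call was lost without DMSO replicate 2 (-0.098, adjusted p = 0.26), without dTAG replicate 1 (-0.13, adjusted p = 0.18) and without dTAG replicate 2 (-0.19, adjusted p = 0.081). With ERCC totals its sign turned (0.28, adjusted p = 0.66). In all it was called under 13 of 20 alternatives, with adjusted p from 1.28e-13 to 0.66.

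**Figure D3:**
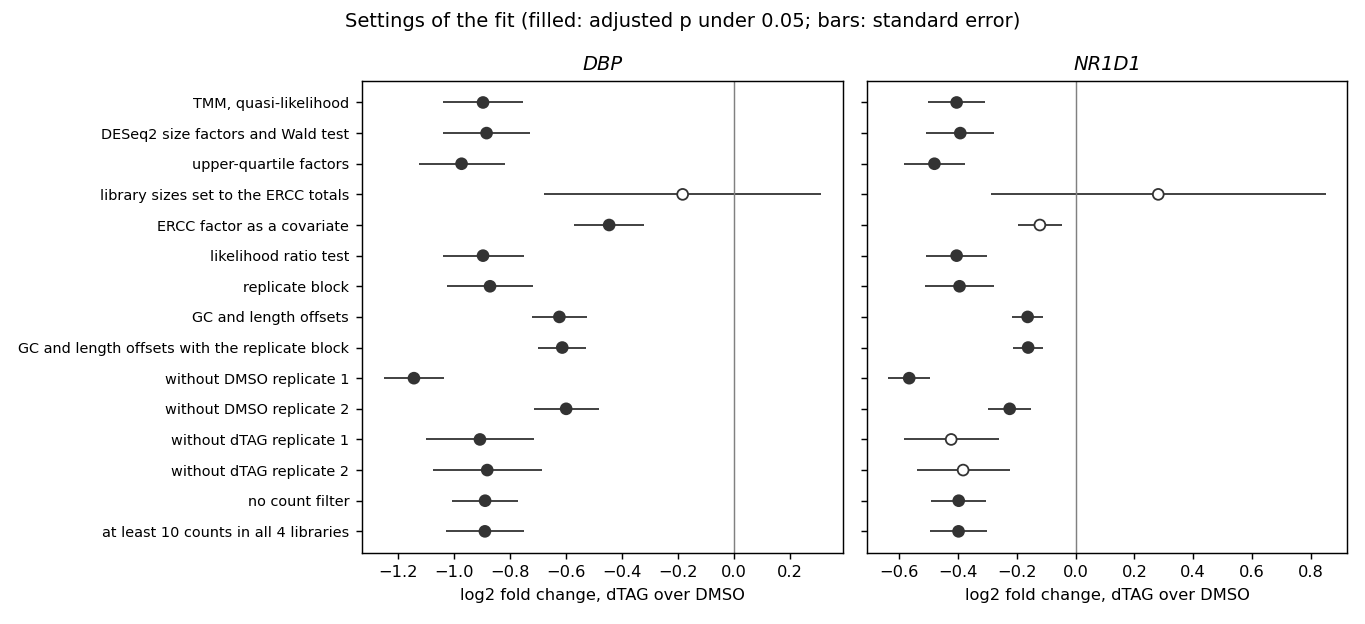
Log2 fold change of DBP and NR1D1 (dTAG over DMSO) with its standard error under the planned settings of the fit; filled points have an adjusted p under 0.05. DBP lies left of 0 in every setting shown and is open only with ERCC totals (-0.18), whereas NR1D1 is open in 4 settings and turns to 0.28 with ERCC totals.

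NR1D2 (ENSG00000174738.12, chr3:23945259-23980618, plus strand), the paralog of NR1D1, did not fall with it. It gave 171 and 175 CPM with DMSO and 185 and 197 CPM with dTAG (log2 fold change 0.14, SE 0.0866, adjusted p = 0.304). The dTAG libraries were both above the controls, but the difference did not pass the test, and with the offsets it was 0.050. The per-kilobase ratio of NR1D1 to NR1D2 within a library was 1.96 and 2.42 with DMSO and 1.57 and 1.43 with dTAG, a log2 difference of -0.54 with no overlap. This pair differs in GC content, 56.8% against 40.7%, and the exact permutation p was again 0.333.

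None of the PER genes, whose proteins carry the inhibitory complex, passed the test. PER1 (chr17:8140471-8156506, minus strand) gave 25.2 and 26.4 CPM with DMSO and 25.0 and 23.1 CPM with dTAG, with a log2 fold change of -0.10 (SE 0.105, adjusted p = 0.552) that became 0.14 with the offsets. Its dTAG libraries were both under the controls, by a margin smaller than the spread between replicates. PER2 (chr2:238244037-238290102, minus strand) gave 34.0 and 42.7 CPM with DMSO and 42.2 and 40.5 CPM with dTAG, so that both dTAG libraries lay between the controls (0.11, SE 0.105, adjusted p = 0.523). PER2 was called higher with the offsets (0.22, adjusted p = 0.0318), with the ERCC factor (0.39, adjusted p = 0.00166) and without DMSO replicate 2 (0.28, adjusted p = 0.0165). Its adjusted p ran from 0.00166 to 0.96 over the alternatives, and without DMSO replicate 1 the value was -0.048. The call with the offsets was lost without DMSO replicate 1 (0.14, adjusted p = 0.13), without dTAG replicate 1 (0.22, adjusted p = 0.067) and without dTAG replicate 2 (0.22, adjusted p = 0.10). PER3 (chr1:7784319-7845177, plus strand) gave 15.6 and 15.0 CPM with DMSO and 16.3 and 16.5 CPM with dTAG (0.098, SE 0.118, adjusted p = 0.611), and it was called under no alternative. The per-kilobase ratio of PER1 to PER2 was 2.13 and 1.77 with DMSO and 1.70 and 1.64 with dTAG, while that of PER2 to PER3 overlapped between the groups (2.87 and 3.76, then 3.42 and 3.24).

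The cryptochromes, the partners of PER in the inhibitory complex, did not pass the test either. CRY1 (chr12:106991363-107093829, minus strand) gave 41.1 and 36.4 CPM with DMSO and 43.0 and 42.9 CPM with dTAG (log2 fold change 0.15, SE 0.0948, adjusted p = 0.322). The value was -0.015 with the offsets, and CRY1 was called only when DMSO replicate 1 was left out (0.24, adjusted p = 0.0165). CRY2 (chr11:45847117-45883248, plus strand) gave 27.9 and 35.5 CPM with DMSO and 31.1 and 29.3 CPM with dTAG (-0.069, SE 0.112, adjusted p = 0.716). Its controls enclosed both dTAG libraries, and it was called lower without DMSO replicate 1 (-0.23, adjusted p = 0.0271). The ratio of CRY1 to CRY2 per kilobase was 0.521 and 0.361 with DMSO and 0.487 and 0.517 with dTAG, overlapping between the groups. Over the alternatives the adjusted p ran from 0.0165 to 0.96 for CRY1 and from 0.0271 to 1.00 for CRY2.

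Neither E-box repressor of the BHLHE pair was called with TMM factors. BHLHE40 (chr3:4979115-4985323, plus strand) gave 28.3 and 29.8 CPM with DMSO and 35.4 and 28.4 CPM with dTAG (log2 fold change 0.14, SE 0.110, adjusted p = 0.434). A single dTAG library carried this value, which was -0.028 without dTAG replicate 1 and 0.29 without dTAG replicate 2. With the offsets it was called higher (0.25, adjusted p = 0.0444), although not without dTAG replicate 1 (0.12, adjusted p = 0.45) or without DMSO replicate 2 (0.23, adjusted p = 0.053), and with the ERCC factor it was called too (0.29, adjusted p = 0.0427), within a range of 0.00663 to 0.96 over its alternatives. BHLHE41 (chr12:26120025-26125127, minus strand) was the least counted member, with 160 and 188 raw counts with DMSO and 150 and 130 with dTAG, or 1.62, 1.88, 1.50 and 1.44 CPM. Its log2 fold change of -0.25 had the largest standard error of the 10 (0.232, adjusted p = 0.498), and it was -0.13 with the offsets.

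**Figure D4:**
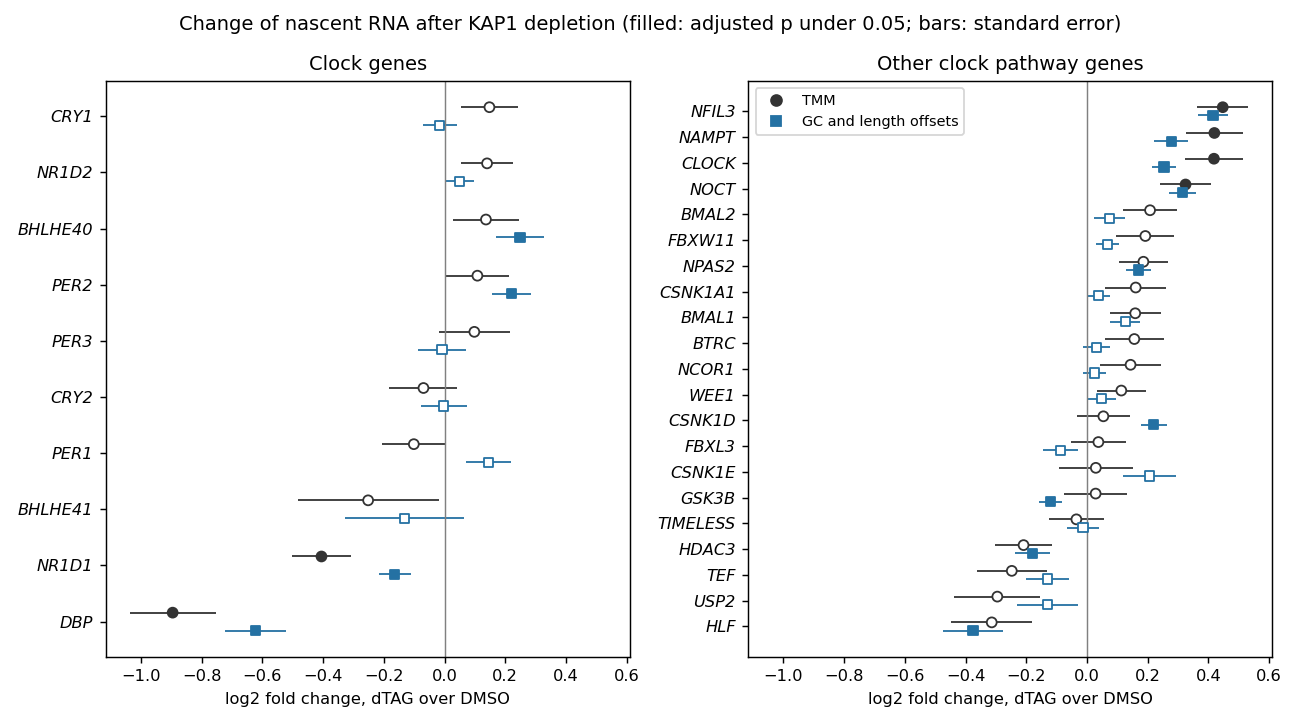
Log2 fold change (dTAG over DMSO) and standard error of the 10 clock genes and of the 21 other clock pathway genes tested, with TMM factors (circles) and with GC and length offsets (squares); filled symbols have an adjusted p under 0.05. DBP (-0.90) and NR1D1 (-0.41) are the filled circles left of 0 and NFIL3, NAMPT, CLOCK and NOCT the filled circles right of it. Among the 10 clock genes, PER1, PER3 and CRY1 change side with the offsets.

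Of 25 other genes of the clock pathway, 21 were tested and 4 were called, all higher with dTAG, against 3.44% of all tested genes in that direction. Their median log2 fold change was 0.14, beside 0.049 with the offsets and 0.072 with upper-quartile factors. CLOCK, the E-box activator, gave 171 and 143 CPM with DMSO and 207 and 212 CPM with dTAG (0.42, SE 0.0943, adjusted p = 0.0112). The other activators listed, BMAL1 (0.16), BMAL2 (0.21) and NPAS2 (0.19), had positive values that did not pass the test, so that 1 of the 4 activators was called. With the offsets, which called 18.1% of all genes, 2 of the 4 were called, CLOCK (0.25, adjusted p = 6.71e-04) and NPAS2 (0.17, adjusted p = 0.0135). The NPAS2 call was lost without dTAG replicate 2, and BMAL1 was 0.13 and BMAL2 0.074. NAMPT, the enzyme that sets the rate of NAD salvage and a known clock output, gave 93.5 and 77.1 CPM with DMSO and 118 and 110 CPM with dTAG (0.42, SE 0.0937, adjusted p = 0.0104), and 0.28 with the offsets. NOCT (nocturnin) gave 101.8 and 101.7 CPM with DMSO and 132.6 and 122 CPM with dTAG (0.32, SE 0.0838, adjusted p = 0.0235). These 4 calls did not hold without dTAG replicate 1 or without dTAG replicate 2, but few of all tested genes were called in those fits either. The value of CLOCK was then 0.44 and 0.40. With the offsets, 9 of the 21 were called, 6 higher and 3 lower, where 18.1% of all genes were called, 10.6% higher and 7.45% lower. CLOCK, NFIL3, NAMPT and NOCT were among the 6 and kept a positive value under all 20 alternatives. CLOCK, NFIL3 and NAMPT were each called under 17 of these alternatives and NOCT under 15.

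Among the 10 tested kinases, ligase subunits, corepressors and other regulators of PER and CRY stability or repression, none was called by edgeR's test with TMM factors. Over all tested genes, that test called 7.10%. Only 1 of the 10, the histone deacetylase HDAC3 (-0.21, adjusted p = 0.163), had an unadjusted p under 0.05. With the offsets 3 of these 10 were called, beside 18.1% of all genes. The kinase CSNK1D was higher (0.22, adjusted p = 0.00371) and GSK3B (-0.12, adjusted p = 0.0442) and HDAC3 (-0.18, adjusted p = 0.0495) were lower. With TMM factors CSNK1D was 0.054 and GSK3B was 0.029, so the sign of GSK3B turned with the offsets. Of these 3, CSNK1D stayed called whichever library was left out, whereas GSK3B and HDAC3 were lost in each of the 4 leave-outs (adjusted p from 0.052 to 0.22 and from 0.065 to 0.27), and GSK3B was also lost with the replicate block. Of the other output genes, USP2 (-0.30) and WEE1 (0.11) did not pass the test. The activating receptors RORA and RORB, which oppose NR1D1 and NR1D2, were under the count minimum, with 7 to 16 and 0 to 5 counts in the 4 libraries. CIART, a repressor of the CLOCK and BMAL1 pair, was also under it, with 16 and 4 counts with DMSO and 0 and 3 with dTAG.

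Levels of different genes were compared as CPM per kilobase of the counted gene interval, as the mean ± SD over 2 libraries. In DMSO the order ran from NR1D1 (10.7 ± 1.80) through NR1D2 (4.90 ± 0.0916), BHLHE40 (4.67 ± 0.173), DBP (3.31 ± 0.874) and PER1 (1.61 ± 0.0516) to CRY2 (0.877 ± 0.149), PER2 (0.833 ± 0.135), CRY1 (0.378 ± 0.0328), BHLHE41 (0.343 ± 0.0373) and PER3 (0.252 ± 0.00726). The neighbours CRY2 and PER2, and CRY1 and BHLHE41, overlapped between libraries and have no order. The span from NR1D1 to PER3 was 42.6-fold, and 5 members lay above the median of tested genes (1.06 CPM per kilobase). With dTAG, on the same scale, NR1D1 was still the highest (8.10) and PER3 the lowest (0.270). NR1D2 (5.40) and BHLHE40 (5.14) then overlapped, DBP (1.78) came close to PER1 (1.50), and PER2 (0.898) stood before CRY2 (0.836). Per kilobase of exon rather than of the whole gene the order differs, with CRY1 the fourth in DMSO and DBP the seventh, NR1D2 (32.9) above NR1D1 (24.4) with dTAG, and BHLHE41 the lowest in both groups, although the counts themselves cover introns too.

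**Figure D5:**
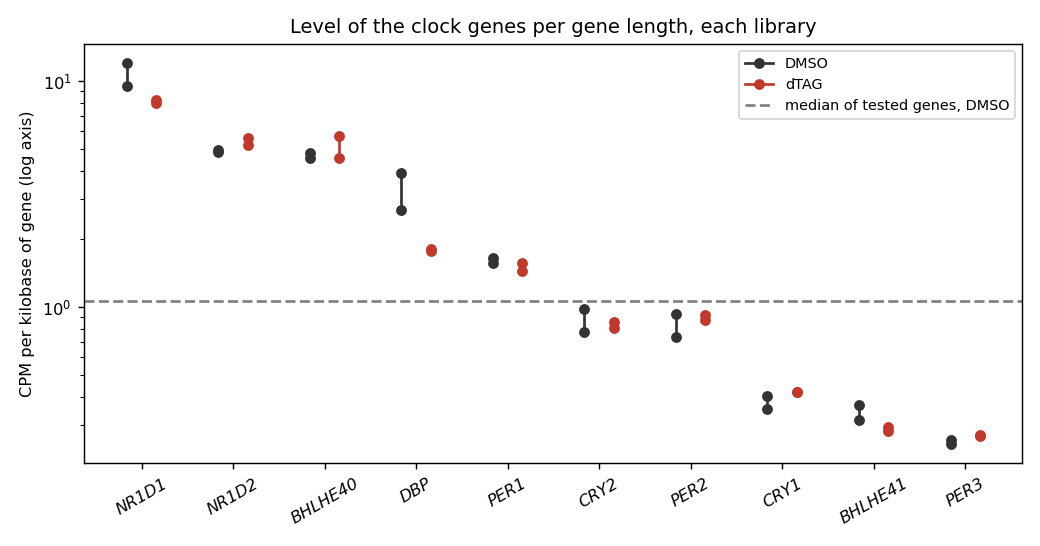
Level of each clock gene per gene length (CPM per kilobase, log axis) in the 2 DMSO and 2 dTAG libraries, ordered by the DMSO mean; the dashed line is the median of tested genes (1.06). NR1D1, NR1D2, BHLHE40, DBP and PER1 lie above the line in all 4 libraries, and the gap between DBP and PER1 narrows with dTAG.

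Some of the counted intervals overlap those of other counted genes, and the strand setting of the counting is not given in the sources used here, so reads in the shared stretches could not be assigned. SPHK2, on the opposite strand, covers 9.30% of the DBP interval, and it was also called lower (26.6 and 31.2 CPM with DMSO, 22.8 and 21.9 CPM with dTAG; log2 fold change -0.37, adjusted p = 0.0434, from 1.22e-05 to 0.86 over its alternatives). The SPHK2 call was lost without DMSO replicate 2 (-0.25), without either dTAG library (-0.39 and -0.34) and with the offsets (-0.14). DBP over SPHK2 per kilobase was 1.15 and 1.44 with DMSO and 0.900 and 0.916 with dTAG, so DBP was lower in relation to its neighbour in both dTAG libraries. THRA, the thyroid hormone receptor on the strand opposite NR1D1, covers 13.6% of the NR1D1 interval and was called lower too (32.2 and 37.0 CPM, then 24.9 and 22.9 CPM; -0.54, SE 0.105, adjusted p = 0.00399). That call was lost without dTAG replicate 1 (-0.59, adjusted p = 0.062) or dTAG replicate 2 (-0.48, adjusted p = 0.41) and kept with the offsets (-0.38, adjusted p = 0.00124), with a range of 8.02e-10 to 0.82 over its alternatives. Here the ratio of NR1D1 to THRA did not fall, being 10.4 and 11.5 with DMSO and 11.7 and 12.4 with dTAG. The part of these neighbours in the values of DBP and NR1D1 was not tested. A same-strand gene, ENSG00000263620, covers 35.5% of PER1, with 205 to 357 counts, and SSPN covers 61.5% of BHLHE41 from the opposite strand, with 64 to 108 counts. The overlaps of NR1D2 with NKIRAS1 (3.77%) and of PER3 with UTS2 (3.44%) were small.

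The 5 tested genes whose profile over the 4 libraries lay nearest to that of DBP, by Euclidean distance of centred log2 CPM, were TMEM105 (distance 0.0721), SDR42E2 (0.0979), RBBP8NL (0.102), FIGNL2 (0.103) and H1-10 (0.115). Their log2 fold changes ran from -0.90 to -0.78, and their DMSO replicate 2 was also the highest of the 4 libraries. Both traits follow from picking the genes by likeness to DBP over these same libraries. All but H1-10 had only 126 to 423 raw counts per library. All 5 had a higher GC content than the median of tested genes (51.1% to 68.6%), as DBP has. The likeness rests on only 4 libraries and the same contrast.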

How the data were processed

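TT-Seq libraries from DMSO- and dTAG-treated KAP1 degron HCT116 cells (2 each) were used. Per the labels and the methods, the authors trimmed reads with Trim Galore 0.6.4, aligned them to hg38 with STAR and counted them with featureCounts (Subread 1.6.3), taking each protein-coding gene from end to end, introns included, and adding the ERCC spike-ins. The deposited values are raw counts per gene, not normalized. How reads in overlapping genes were treated is not given in the sources used here.

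Symbols came from GENCODE 44 by Ensembl identifier (19802 of 19901 matched). A gene needed 50 counts in each of the 4 libraries and was then tested with edgeR 4.0.16 in R 4.3.3 (TMM factors, quasi-likelihood F test, two-sided, Benjamini-Hochberg adjustment), after the script was tested on simulated counts. The standard error is the absolute log2 fold change over the square root of F. The authors' spike-in normalization was not fully specified, so ERCC settings were alternatives. The others were DESeq2 1.42.0, upper-quartile factors, a likelihood ratio test, other count minimums, a replicate block, offsets for GC and length (lowess, span 0.3) and leaving out each library. E-box letters were searched in hg38. RefSeq promoter windows were those given for GRCh38.p14.

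ERCC counts were 9551 to 25165 per library (0.0103% to 0.0265% of gene counts), which limits scaling by them. The highest count was in DMSO replicate 2, and the next was 14798 in DMSO replicate 1. Raw counts per library were 1176 to 18501 in the members other than BHLHE41 (130 to 188). The p-values rest on the spread between the 2 libraries of each group, moderated toward a trend over all tested genes. Where a library is left out, its group has no spread of its own. Per the methods, the ERCC mix was added to about the same mass of purified nascent RNA from each sample. Scaling by it therefore measures neither the number of cells nor the RNA per cell. The members, the pathway list and the tests were chosen with earlier results of these data known. Genes named were all members, the pathway list (1 gene of it is not reported here), TRIM28, overlapping genes, the markers and the 5 genes nearest to the member with the smallest p.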

Additional observations from a re-analysis of the deposited data

How the results depend on the processing

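Of the 200 alternative values of the 10 members, 148 kept their direction and side of the threshold, 14 passed it newly, 7 no longer passed it and 31 turned their sign. The causes of these changes were not tested. Library sizes set to the ERCC totals moved the median of all log2 fold changes to 0.63. PER1 was then 0.54, CRY2 0.62, NR1D1 0.28 and BHLHE41 0.42, the median of the members was 0.68, and edgeR called 0 members, 0 pathway genes and 0 of all genes (229 at an unadjusted p under 0.05). With the ERCC factor CRY2 was 0.23.

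All genes called numbered 895, with 1593 by the likelihood ratio test, 1417 with no count filter, 340 with the replicate block and 2280 with the offsets. Same-numbered libraries did not deviate alike (correlation of their deviations across genes -0.25). This cannot settle whether the numbers name pairs, since the ratio of replicate 2 over replicate 1 ran with GC content in DMSO (rho = 0.75) and against it in dTAG (rho = -0.43). The crossed block was added after seeing the data and follows them, so its number of calls is no independent support. It gave 3190 calls, the offsets gave 2628 with the replicate block and 2716 with the crossed block, and the members called were 2 with either block and 4 with the offsets, with or without a block. Pathway genes called were 9 with the offsets, 8 with the offsets and replicate block, 10 with the crossed block and 9 with the offsets and crossed block.

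With the offsets alone, with the replicate block and with the crossed block, in that order, PER1 was 0.144, 0.145 and 0.146, PER3 was -0.0085, -0.0083 and -0.0085, and CRY1 was -0.0153, -0.0155 and -0.0159. CRY2 was 0.0019 with the offsets and replicate block and 0.00091 with the offsets and crossed block.

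Leaving out 1 library assumes that the lone sample varies like the other group. It gave 69 (without dTAG replicate 2) to 5491 (without DMSO replicate 1) calls over all genes, 1 to 4 members called, 0 to 15 pathway genes called and a member median from -0.091 to 0.064. PER2 ran from -0.048 (without DMSO replicate 1) to 0.28, CRY2 from -0.23 to 0.11 and BHLHE40 from -0.028 (without dTAG replicate 1) to 0.29. Leaving out a library with the offsets in place, also added after seeing the data, gave 2737 (without DMSO replicate 1), 2172 (DMSO replicate 2), 1837 (dTAG replicate 1) and 1093 (dTAG replicate 2) calls, 1 to 4 members and 5 to 9 pathway genes. Over those 4 fits in the same order, PER1 was 0.23, 0.058, 0.14 and 0.15, PER3 was -0.034, 0.019, -0.0147 and -0.00029, CRY1 was -0.039, 0.0099, -0.052 and 0.020, and CRY2 was -0.11, 0.12, -0.026 and 0.022. NR1D2 was -0.012 without DMSO replicate 1.

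Levels per kilobase of exon moved by more than the replicate SD in 19 of 20 cases, and levels from raw library totals in 5 of 20. With 2 libraries per group and standard errors of 0.0866 to 0.232 on the log2 scale, small changes of single members cannot be resolved.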
